A study of Rattus norvegicus with 8 samples.

Results

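The ATP-binding cassette (ABC) efflux transporters described here are 7 rat genes, *Abcb1a*, *Abcb1b*, *Abcg2*, *Abcc2*, *Abcc3*, *Abcg5* and *Abcg8*, of 14217 genes on the array. They were chosen by name with earlier results of these same arrays known, so their values are given as a description, and their place among the genes that the fit across the array called supports nothing by itself. Of the 7 genes, 6 had a probe set annotated to them alone, and all 6 passed the filter on low signals that left 9258 genes. *Abcb1b* was annotated only on a probe set that it shares with *Abcb1a*, so it has no level of its own. The RNA was that of loosened epithelial cells of the upper small intestine; the rats were Wistar, aged 4 months and female by the study's methods. The 4 groups, with 2 arrays each, were WR (water restriction, 12 h by the labels, while the study's methods also mention a longer one), DSW1200 (deep-sea water named for its hardness), SeW (selenium water) and TW (tap water), and each water was drunk for 3 days by the labels. The arrays asked how the epithelial transcriptome differed between these drinking regimes. The labels do not say that the arrays of a group came from separate animals, so a p-value measures only the spread between these samples. With 2 arrays against 2, the smallest exact permutation p for a single value is 0.333.

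ABC transporters use ATP to move substrates out across a membrane. In the enterocyte, P-glycoprotein (*Abcb1a* and *Abcb1b* in rodents), Bcrp (*Abcg2*) and Mrp2 (*Abcc2*) sit in the brush border and return drugs, toxins and conjugated metabolites to the gut lumen. Mrp3 (*Abcc3*) faces the blood side, and *Abcg5* and *Abcg8* form an obligate pair in the brush border that sends plant sterols and cholesterol back to the lumen.

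In the RefSeq annotation (GRCr8), *Abcb1b* (chr4:26197706-26280156) and *Abcb1a* (chr4:26312403-26488456) were neighbours 32.2 kb apart. *Abcg8* (chr6:15698448-15717730) and *Abcg5* (chr6:15717936-15743376) lay head to head with 205 bases between them. *Abcg2* was at chr4:89006056-89132915, *Abcc2* at chr1:252613875-252672459 and *Abcc3* at chr10:79793571-79839528. RefSeq promoter windows of the same build were used for 6 of the 7 genes, and *Abcc3* had no entry. Sequences are shown for *Abcb1a*, the member with the largest difference between waters, and for the stretch that *Abcg5* and *Abcg8* share. The *Abcb1a* sequence is the 250 bases before the start in that table, chr4:26397649-26397898 on the minus strand, and this start lies inside the annotated gene span. The *Abcg5* to *Abcg8* sequence is chr6:15717731-15717935 on the plus strand, the strand of *Abcg5*. Capitals mark matches to 6 motifs searched on both strands.
Abcb1a: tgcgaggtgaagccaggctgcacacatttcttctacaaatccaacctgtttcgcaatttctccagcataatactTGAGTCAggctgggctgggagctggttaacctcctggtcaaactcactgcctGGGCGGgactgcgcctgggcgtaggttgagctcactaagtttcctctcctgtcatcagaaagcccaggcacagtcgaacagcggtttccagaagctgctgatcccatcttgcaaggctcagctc
Abcg5 to Abcg8: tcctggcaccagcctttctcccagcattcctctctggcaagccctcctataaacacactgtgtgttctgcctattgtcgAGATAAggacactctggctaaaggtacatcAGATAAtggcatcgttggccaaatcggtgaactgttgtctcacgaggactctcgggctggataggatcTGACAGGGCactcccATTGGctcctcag

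The motifs were AGGTCA (the half-site of many nuclear receptors), AGATAA (a form of the GATA factor site), CCAAT (the CCAAT box), GGGCGG (the GC box), TGACTCA (the AP-1 site) and TGACNNNGC (the core of the antioxidant response element). In the *Abcb1a* window GGGCGG matched once, as it did at least once in 30.5% of 33465 promoter windows of that length. TGACTCA matched once on the other strand, where 4.05% of windows held it on either strand. The stretch between *Abcg5* and *Abcg8* held 2 matches of AGATAA, present in 8.35% of windows cut to 205 bases. It also held 1 match of CCAAT on the other strand (29.7% of windows) and 1 of TGACNNNGC (8.59%). AGGTCA had no match in either stretch and was found in 14.1% of the longer and 11.7% of the shorter windows. No matches overlapped each other. A match says only that these letters are present.

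The deposited values were MAS5 signals, which were quantile normalized here, and levels below are normalized signals of 1 probe set. Levels of different probe sets are not comparable. The arrays differed in RNA measures along with the groups: beta-actin 3' signal over 5' signal, a measure of broken or incompletely copied RNA, averaged 23.0 in WR, 29.9 in DSW1200, 12.3 in SeW and 22.3 in TW. GAPDH 3'/5' ratios had the same order at their ends, with 3.43 in DSW1200 and 1.81 in SeW. Both SeW arrays had the lowest ratios of all 8. The beta-actin 3' signal far exceeded the 5' signal on every array, with ratios from 10.9 to 32.8. The median deposited signal ran from 4.3 in TW replicate 2 to 11.1 in SeW replicate 1. TW replicate 2 had the lowest mean correlation with the other 7 arrays, 0.907, where the others had 0.920 to 0.931.

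The P-glycoprotein gene *Abcb1a* (1370464_at) had its highest signals in SeW, at 235 and 250.4. It had 36.8 and 60.01 in WR and 34.8 and 18.3 in DSW1200, against 33.2 and 23.9 in TW. Both SeW arrays lay above all 6 others by a wide margin, and the WR arrays lay just above the TW arrays, while DSW1200 and TW overlapped. The log2 difference was 3.11 (SE 0.34) for SeW minus TW, an 8.62-fold ratio, and 3.27 (SE 0.34) for SeW minus DSW1200. By size, it ranked 1 among the 9258 genes for SeW against TW and 4 for SeW against DSW1200. For WR minus TW it was 0.74 and for DSW1200 minus TW it was -0.16, each with the same SE.

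A second probe set of *Abcb1a* (1370465_at) had the same order of groups but a wider spread. Its signal was 92.3 and 254.8 with SeW, 40.6 and 41.9 with WR, 31.3 and 11.6 with DSW1200, and 24.5 and 25.0 with TW. The SeW arrays were again the 2 highest, although SeW replicate 1 was much nearer to WR here than on the first probe set. The differences from TW were 2.63 (SE 0.51) in SeW, 0.74 in WR and -0.38 in DSW1200.

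On the probe set shared by *Abcb1a* and *Abcb1b* (1370583_s_at), the signal was 84.3 and 117.7 in SeW. WR read 18.8 and 22.7, and DSW1200 read 13.4 and 11.1, against 14.1 and 12.5 for TW. SeW stood clear of the other groups and WR lay between SeW and TW, while DSW1200 overlapped TW. The log2 difference of SeW minus TW was 2.91 (SE 0.29). Across the 8 arrays the shared probe set had a Pearson r of 0.985 with 1370464_at and 0.944 with 1370465_at, and the *Abcb1a* probe sets had 0.939 with each other. How much of the shared signal comes from *Abcb1b* cannot be told from it.

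**Figure D1:**
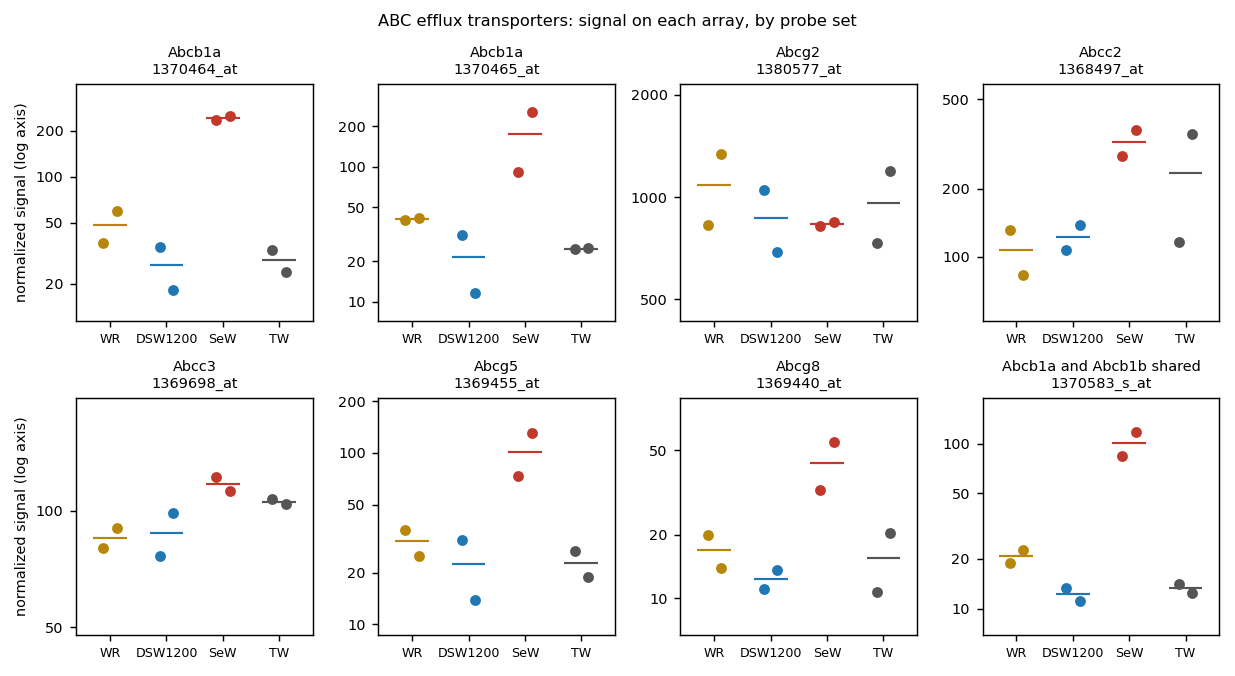
Normalized signal (log axis) on each array for the 7 probe sets of single genes and the probe set shared by *Abcb1a* and *Abcb1b*; points are arrays and lines are group means of 2 arrays. The SeW points stand above all others for *Abcb1a* (235 and 250.4), *Abcg5* (73.4 and 130.1) and *Abcg8* (32.6 and 55.1), while the *Abcg2* groups overlap.

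The sterol transporter genes also had their highest signals in SeW. *Abcg5* (1369455_at) read 73.4 and 130.1 in SeW. It read 35.7 and 25.2 in WR and 31.0 and 13.9 in DSW1200, against 26.8 and 19.0 in TW, so SeW did not overlap any group, and WR, DSW1200 and TW overlapped each other. The log2 difference was 2.12 (SE 0.42) for SeW minus TW, a 4.33-fold ratio that ranked 42 by size, and 2.23 for SeW minus DSW1200. WR minus TW was 0.41 and DSW1200 minus TW was -0.12, both within 1 SE of 0, and the DSW1200 value turned to 0.01 as deposited.

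*Abcg8* (1369440_at), the partner half-transporter, read 32.6 and 55.1 in SeW, 20.0 and 14.0 in WR, 11.1 and 13.6 for DSW1200, and 10.8 and 20.3 for TW. The order was the same at its upper end as for *Abcg5*, with SeW above all other arrays and the remaining groups overlapping TW. SeW minus TW was 1.52 (SE 0.41), a 2.86-fold ratio ranked 158, and SeW minus DSW1200 was 1.79. The signals outside SeW were low, and with 32 added to every signal SeW minus TW was 0.66. In both genes SeW replicate 2 was the higher of the SeW arrays, and over all 8 arrays their log2 signals had a Pearson r of 0.828.

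The multidrug resistance proteins differed less between SeW and TW than these genes. *Abcc2* (1368497_at), the Mrp2 gene, read 281 and 364 in SeW, 131.8 and 83.0 in WR, 107.5 and 138.1 for DSW1200, and 115.9 and 353 for TW. The TW arrays were far apart: TW replicate 1 lay among the WR and DSW1200 arrays and TW replicate 2 among the SeW arrays. SeW minus TW was 0.66 (SE 0.44) with both TW arrays, -0.14 without TW replicate 1 and 1.46 without TW replicate 2. SeW minus DSW1200, which does not use TW, was 1.39 (SE 0.44), a 2.63-fold ratio with no overlap of the arrays, but it was -1.93 (SE 1.16) with the beta-actin ratio as a covariate. WR minus TW was -0.95 and DSW1200 minus TW was -0.73, and both groups overlapped TW.

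*Abcc3* (1369698_at), the Mrp3 gene of the basolateral side, had the narrowest range. It read 122 and 112 with SeW, 79.8 and 90.2 with WR, 76.5 and 98.5 with DSW1200, and 107 and 104 with TW. Both SeW arrays lay above the TW arrays and all 4 WR and DSW1200 arrays lay below them, but the steps were small. As deposited, the WR and DSW1200 arrays overlapped TW. SeW minus TW was 0.15 (SE 0.19), WR minus TW -0.31, DSW1200 minus TW -0.28 and SeW minus DSW1200 0.43. The sign of WR minus TW turned to 0.06 with the values as deposited, on which the median gene itself lay 0.38 higher in WR.

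*Abcg2* (1380577_at), the gene of Bcrp, did not separate any of the groups. Its signals were 830.4 and 1342 with WR, 1046 and 691 with DSW1200, 819.7 and 845 with SeW, and 732 and 1193 with TW. The arrays of WR, DSW1200 and TW spread over nearly the same range, and the SeW arrays fell inside it. The differences from TW were 0.18 in WR, -0.14 in DSW1200 and -0.17 in SeW, each with an SE of 0.29, and SeW minus DSW1200 was -0.03; the scaling turned 3 of these signs, WR to -0.01 with arrays scaled by their medians, and SeW to 0.78 against TW and 0.86 against DSW1200 as deposited.

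**Figure D2:**
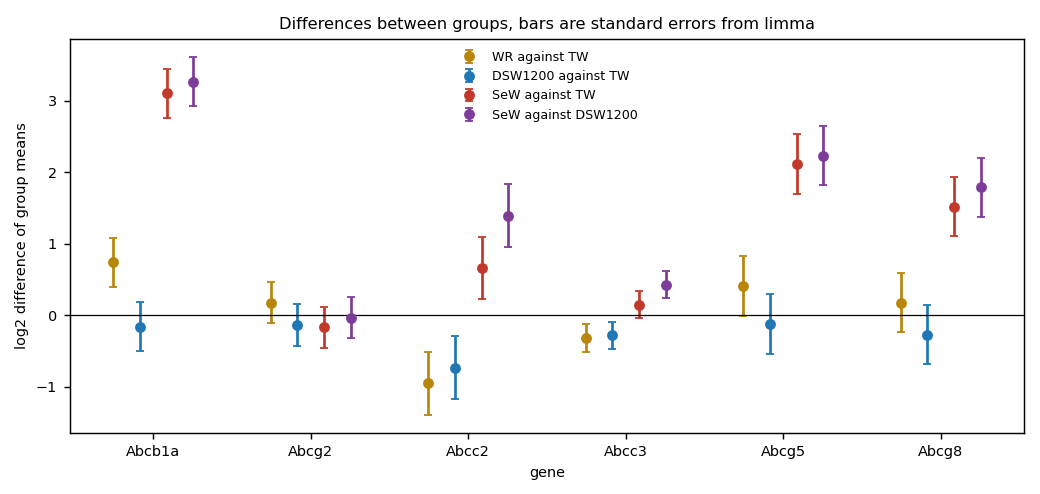
Log2 differences between group means for the 6 genes with a probe set of their own, in 4 comparisons of 2 arrays with 2; bars are limma standard errors. SeW minus TW is 3.11 for *Abcb1a*, 2.12 for *Abcg5* and 1.52 for *Abcg8*, and -0.17 for *Abcg2*.

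Over the 6 measured transporters, 5 lay above TW in SeW, with a median log2 difference of 1.09, against -0.04 over all 9258 genes. In SeW against DSW1200 5 of 6 lay above, with a median of 1.59 against -0.04 over all genes. In WR the median was 0.18 against -0.01, and 4 of the 6 lay above TW. In DSW1200 all 6 lay below TW, with a median of -0.21 against -0.02, and their differences ran from -0.73 to -0.12. As deposited, 6 lay above in both SeW comparisons, 5 in WR and 1 in DSW1200, and with arrays scaled by their medians 5 lay above TW and 6 above DSW1200 in SeW, 3 in WR and 0 in DSW1200. Single arrays moved the smaller differences as well: 3 of 6 lay above TW in DSW1200 without TW replicate 2 or without DSW1200 replicate 2, and 2 without TW replicate 1. Without TW replicate 1 the WR median was -0.23, with 2 of 6 above TW. These comparisons share their TW or SeW arrays, so they are not independent of one another.

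The limma fit called 1.91% of all genes at adjusted p 0.05 for SeW against TW, and *Abcb1a* and *Abcg5* were the 2 of 6 members among them. For SeW against DSW1200 it called 2.72% of genes, with the same 2 members. It called 0.0108% for WR and 0% for DSW1200 against TW, with 0 members in either. The calls of both members depended on the setting. *Abcb1a* kept its call in 13 of 18 alternatives against TW and in 14 of 18 against DSW1200, and *Abcg5* in 7 and 10 of 18. Against TW, *Abcb1a* lost its call without either SeW array, and *Abcg5* lost its call without TW replicate 2, either WR array or either SeW array. Against DSW1200, *Abcb1a* lost its call without SeW replicate 2, and *Abcg5* lost its call without DSW1200 replicate 2, either WR array or either SeW array. At an unadjusted p under 0.05 there were 898 genes in WR (9.7% of those tested), 733 in DSW1200 (7.92%) and 1810 in SeW (19.6%) against TW, and 1848 in SeW against DSW1200 (20%). A 2-fold difference was passed by 3 members in SeW against TW, where 6.8% of genes passed, and by 4 in SeW against DSW1200, where 6.2% did. No member reached 2-fold in WR (4.8% of genes) or DSW1200 (4.26%). Arrays did not overlap for 4 members in SeW against TW (51.2% of genes) and for 5 in SeW against DSW1200 (53.9%), for 2 in WR (39.7%) and for 1 in DSW1200 (35.9%). Since the members were chosen with such results known, nothing is read from these counts.

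Likeness between transporters across the 8 arrays ran from high to none. Pearson r of log2 signals was 0.937 between *Abcb1a* and *Abcg5*, 0.809 between *Abcb1a* and *Abcg8*, and 0.815 between *Abcc2* and *Abcg8*. *Abcc2* and *Abcc3* had 0.677, and *Abcb1a* had 0.483 with *Abcc2* and 0.534 with *Abcc3*. *Abcg2* had a weak negative r with each of the other 5, between -0.311 and -0.042. These values describe 8 arrays that share groups and RNA quality.

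Among all tested genes, the 2 with the most similar pattern over the 8 arrays were found for each member. Since these arrays chose the genes, an order of groups like that of the member is no separate result. For *Abcb1a* they were *Slc6a20a*, a proline transporter of the brush border (r = 0.977), and *Ahcyl2* (r = 0.971). *Slc6a20a* read 327 and 424 with SeW, 98.4 and 171 with WR, 73.0 and 45.4 with DSW1200, and 59.6 and 55.9 with TW, so SeW was highest and WR next, as for *Abcb1a*. For *Abcg5* they were *Slc7a9*, a subunit of the cystine transporter (r = 0.977), and *Atl1*, a GTPase that shapes the endoplasmic reticulum (r = 0.972). For *Abcg8* they were *Mep1b*, the brush border protease meprin beta (r = 0.987), and *Styx*, an inactive phosphatase (r = 0.986). *Mep1b* read 3733 and 4204 with SeW, 3143 and 2724 with WR, 2519.6 and 2795 with DSW1200, and 2559 and 2929.6 with TW, so its SeW arrays too were the highest.

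The genes nearest to *Abcc2* were chosen over the same arrays, so its divided TW arrays are part of what chose them. *Atl2*, a relative of *Atl1* (r = 0.995), read 628 and 689.9 with SeW, 454 and 399.8 with WR, 430.4 and 498 with DSW1200, and 446 and 695 with TW. *Pfkfb4*, an enzyme that sets the level of a glycolysis activator, had r = 0.976. For *Abcc3* the genes were *Dpagt1*, which starts N-glycan synthesis (r = 0.969), and *Pigs*, which attaches lipid anchors to proteins (r = 0.960). For *Abcg2* they were *Lyn*, a Src family kinase (r = 0.959), and *Tmem128* (r = 0.944).

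The rest of the ABC family gave no calls. Of 45 other ABC genes listed, 33 were on the array and 20 were tested, and 0 of the 20 passed adjusted p 0.05 by limma in any of the 4 comparisons. Over all genes 0.0108% passed in WR, 0% in DSW1200 and 1.91% in SeW against TW, and 2.72% in SeW against DSW1200. With shares this small, 0 of 20 says little about the family. At an unadjusted p under 0.05 there were 1 in WR (9.7% of all genes), 3 in DSW1200 (7.92%) and 4 in SeW (19.6%) against TW. In SeW against DSW1200 there were 3 (20%). Their median differences were -0.25 in WR, -0.11 in DSW1200 and -0.04 in SeW against TW, and -0.07 in SeW against DSW1200, with 9 above and 11 below TW in SeW. The 13 dim genes included *Abca1*, which exports cholesterol to the blood side (0.90 to 11.6 over the 8 arrays), *Abcb4*, the phospholipid transporter related to *Abcb1a* (0.60 to 11.4), and *Abcb11*, the bile salt pump of the liver (0.34 to 10.8).

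*Abcc1*, the Mrp1 gene, came nearest in size among them in SeW, at 1.59 (SE 0.56, adjusted p 0.163 by limma). It was a low signal, 15.1 and 20.04 in SeW against 10.04 and 3.31 in TW, and TW replicate 2 was the lowest of the 8 arrays. WR and DSW1200 also lay above TW, by 1.12 and 1.27, and SeW minus DSW1200 was 0.33. *Tap2*, which carries peptides for antigen presentation, read 253 and 236 in SeW against 139.8 and 76.8 in DSW1200, a difference of 1.24 (adjusted p 0.0537). *Abca7*, a lipid transporter, lay at -1.01 in SeW against TW (adjusted p 0.135), with 47.5 and 22.1 against 56.4 and 75.7. *Abcf1*, which acts in translation and not in transport, lay at -0.48 there (adjusted p 0.191).

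**Figure D3:**
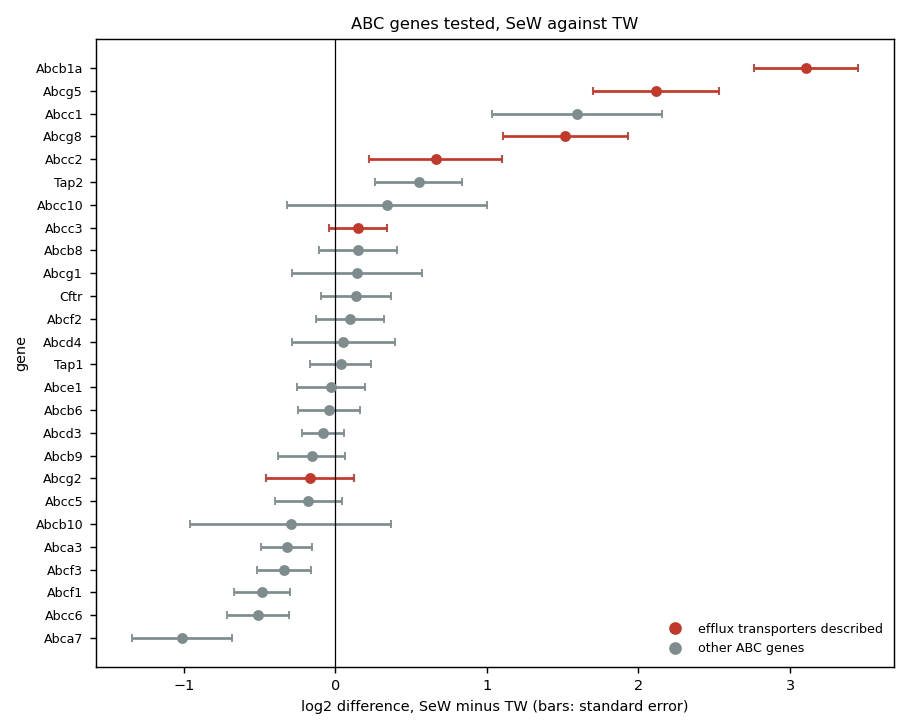
Log2 difference of SeW minus TW with its limma standard error for the 26 ABC genes tested, ordered by size; red points are the transporters described here and grey points the other ABC genes. *Abcb1a* (3.11), *Abcg5* (2.12) and *Abcg8* (1.52) lie among the highest 4, with *Abcc1* (1.59) between the last pair.

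Nuclear receptors and other factors known to control ABC transporters were taken from a list of 18 genes, of which 13 were tested. *Rxrb*, a partner of many nuclear receptors, was lower in SeW than in DSW1200 by limma: 19.6 and 14.9 in SeW against 42.5 and 39.2 in DSW1200, a log2 difference of -1.25 (SE 0.26, adjusted p 0.0392). TW lay between them at 28.9 and 28.3. It was the only call among the 13 in any of the 4 comparisons, and limma called 2.72% of all genes in SeW against DSW1200. At an unadjusted p under 0.05 by limma there were 3 in SeW against TW (19.6% of all genes) and 4 in SeW against DSW1200 (20%). *Nr1h3*, the liver X receptor alpha that induces *Abcg5* and *Abcg8*, read 273 and 240.0 in SeW against 526 and 430.6 in TW, a difference of -0.89 (adjusted p 0.0833). *Vdr*, the vitamin D receptor, lay at 1.36 in SeW against DSW1200 (adjusted p 0.0827), *Nr1i3*, the receptor CAR, at 0.78 (adjusted p 0.178), and *Nfe2l2*, which encodes Nrf2, at -0.24 (adjusted p 0.595). The medians over the 13 were 0.08 in SeW against TW and 0.35 in SeW against DSW1200.

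Of 14 sterol absorption partners and liver X receptor targets, 8 were tested and 0 passed by limma in any comparison, with 3 at an unadjusted p under 0.05 in SeW against TW, where 19.6% of all genes were. *Apob*, the structural protein of chylomicrons, read 6177 and 6054 in SeW against 3758 and 4542 in TW, a difference of 0.57 (SE 0.13, adjusted p 0.0598). *Mttp*, which loads lipid onto it, lay at 0.50 (adjusted p 0.206), and *Mylip*, a liver X receptor target that removes the LDL receptor, at 0.95 (adjusted p 0.195). *Srebf1*, which drives fatty acid synthesis and is another such target, lay at -0.39 (adjusted p 0.415). Over the 8 genes the median was 0.24 in SeW against TW.

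Bile acid handling was represented by 2 tested genes of 9 listed. *Slc51a*, a subunit of the basolateral bile acid exporter, differed by 0.06 between SeW and TW (adjusted p 0.865). *Slc10a2*, the apical bile acid uptake transporter, differed by -0.07 (adjusted p 0.937). Neither passed by limma, adjusted or unadjusted, in any comparison, and *Fabp6*, the ileal bile acid binding protein, was dim by its geometric mean over the arrays (0.49 to 6.81).

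Among uptake transporters, 9 of 15 listed genes were tested, and 8 lay above TW in SeW with a median of 0.64. *Slc22a3*, an organic cation transporter, rose in SeW against DSW1200, with 42.7 and 39.6 against 16.5 and 12.4, a difference of 1.52 (SE 0.33, adjusted p 0.0440 by limma). No other of the 9 was called, and 5 had an unadjusted p under 0.05 by limma in each SeW comparison (19.6% and 20% of all genes). *Slc15a1*, the peptide transporter that also takes up oral drugs, read 1495 and 2011 in SeW against 668 and 1166 in TW (0.97, adjusted p 0.0722). *Slc28a2*, a nucleoside transporter, read 2829 and 2359 against 1346 and 1216 (1.01, adjusted p 0.0799). *Slc28a1*, of the same family, lay at 1.34 in SeW against DSW1200 (adjusted p 0.0892), and *Slco2b1*, an organic anion transporter, at 0.90 (adjusted p 0.148).

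Conjugating enzymes make many of the substrates of *Abcc2*, *Abcc3* and *Abcg2*, and 17 of 27 listed were tested. *Sult1c2*, a sulfotransferase, read 117 and 59.98 in SeW against 24.6 and 23.3 in TW, a difference of 1.81 (SE 0.30, adjusted p 0.0267 by limma). SeW minus DSW1200 was 1.56 (adjusted p 0.0343 by limma). WR also lay above TW, at 41.6 and 39.4, by 0.76 (SE 0.30, adjusted p 0.498 by limma). *Gstm2*, a glutathione transferase, rose in SeW against DSW1200, with 92.3 and 113.8 against 55.5 and 52.6 (0.92, SE 0.20, adjusted p 0.0440). *Tpmt*, *Nat2*, *Gstp1* and *Gsta3*, which methylate, acetylate or join glutathione to substrates, did not pass, at 0.78, 0.83, -0.57 and 0.13 in SeW against TW (adjusted p 0.0818, 0.0736, 0.182 and 0.675). Over the 17, 10 lay above TW in SeW with a median of 0.22, and 15 lay above DSW1200 with a median of 0.27. At an unadjusted p under 0.05 by limma there were 5 in each SeW comparison (19.6% and 20% of all genes) and 5 in WR (9.7%).

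Proteins that hold transporters at the brush border gave 0 calls by limma among 10 tested, with 2 at an unadjusted p under 0.05 in SeW against TW (19.6% of all genes) and 5 in SeW against DSW1200 (20% of all genes). *Ezr*, which links membrane proteins to actin, read 1620 and 1827 in SeW against 701 and 1219 in TW, a difference of 0.90 (adjusted p 0.0838). *Pdzk1*, a scaffold of apical transporters, lay at 0.22 (adjusted p 0.506). *Cdhr5*, an adhesion protein between microvilli, lay at 0.00 (adjusted p 0.996), and *Rab11a*, which recycles vesicles to the apical membrane, at -0.38 (adjusted p 0.194). The median of the 10 was 0.05 in SeW against TW.

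The calls of *Rxrb*, *Slc22a3*, *Gstm2* and *Sult1c2* did not hold under every setting. Over the alternatives tried, *Rxrb* kept its call in 5 of 18, *Gstm2* in 5 of 18, *Slc22a3* in 6 of 17 and *Sult1c2* in 9 of 18 against TW and 8 of 18 against DSW1200. In SeW against DSW1200 each was lost when any 1 WR, DSW1200 or SeW array was left out, and *Sult1c2* against TW was lost without TW replicate 2, either WR array or either SeW array. Their adjusted p ranged from 0.0322 to 0.984 for *Rxrb*, from 0.00414 to 0.953 for *Slc22a3*, from 0.00164 to 0.982 for *Gstm2* and from 0.00135 to 0.507 for *Sult1c2* against TW.

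Markers of the cells in the fraction also differed between the groups. All 9 villus enterocyte markers measured lay above TW and above DSW1200 in SeW, with median differences of 0.20 and 0.30. At an unadjusted p under 0.05 by limma there were 0 against TW (19.6% of all genes) and 4 against DSW1200 (20%). Their summed signal was 28955 to 31166 in SeW, 25469 to 25967 in DSW1200, 26364 to 26940 in TW and 23326 to 24207 in WR. In bulk RNA, more enterocytes and more RNA per enterocyte cannot be told apart. T cell markers lay lower in SeW for 6 of 7 tested against TW, with a sum over 9 genes of 257 to 269 in SeW against 320 to 429 in TW, and *Cd3e* and *Cd8a* were dim. Endothelial markers lay lower for 6 of 6, with overlapping sums of 66.3 to 78.1 against 74.1 to 108 and *Eng*, *Flt1* and *Tie1* dim. Myeloid markers lay lower for 7 of 8 (2580 to 2636 against 2747 to 2950, with *Cd14* and *Itgam* dim). Fibroblast and muscle markers went the other way, above TW for 8 of 9, with overlapping sums of 274 to 307 against 171 to 322. Enteroendocrine markers lay below TW for 6 of 7, at a median of -0.36, and pancreatic acinar markers for 3 of 4 tested, with 4 dim. Crypt and cycling cell markers lay above TW in SeW for 4 of 4 tested, with *Lgr5* and *Ascl2* dim, and overlapping sums of 498 to 658 against 413 to 567. Goblet cell markers lay below TW for 4 of 6, at a median of -0.12, but their differences ran from -0.39 to 2.08. Against DSW1200 limma called *Gzma* and *Gzmb*, granzymes of cytotoxic lymphocytes, lower in SeW, and *Defa24*, a Paneth cell defensin, was called higher against TW in both WR and SeW; these 3 were named after their values were seen. *Gzma* lay at -1.28 (adjusted p 0.0204, called in 8 of 18 alternatives) and *Gzmb* at -1.18 (adjusted p 0.0325, called in 6 of 18), and *Defa24* lay at 3.42 in WR (adjusted p 0.00934, 14 of 18) and 2.13 in SeW (adjusted p 0.0166, 12 of 18). The other tested Paneth marker, *Lyz2*, lay at 0.65 in WR but at -0.21 in SeW against TW, and *Defa5* and *Mmp7* were dim. Summed Paneth signals overlapped between SeW and TW, at 403 to 545 against 311 to 468. Other markers gave no calls in the 4 comparisons. The part of these shifts in the transporters' values was not tested.

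The size of these differences moved with the scaling and with an RNA covariate. On the values as deposited, whose median gene was itself 0.92 higher for SeW minus TW, all 6 transporters lay above TW, *Abcb1a* by 4.18, *Abcg5* by 3.18, *Abcg8* by 2.51, *Abcc2* by 1.61, *Abcc3* by 1.12 and *Abcg2*, below that median, by 0.78. With arrays scaled by their medians, *Abcb1a* lay at 3.33, *Abcg5* at 2.33, *Abcg8* at 1.66 and *Abcg2* at -0.07. Adding 32 to the signals, which shrinks differences between low signals, gave 2.19 for *Abcb1a*, 1.26 for *Abcg5* and 0.66 for *Abcg8*. With 1 array left out, SeW minus TW stayed between 2.87 and 3.35 for *Abcb1a*, between 1.70 and 2.53 for *Abcg5* and between 1.06 and 1.98 for *Abcg8*. With the beta-actin ratio as a covariate, a setting chosen after seeing the data, SeW minus TW was 4.61 (SE 0.72) for *Abcb1a* and 2.24 (SE 1.11) for *Abcg5*, but -0.47 (SE 0.82) for *Abcg8* and -1.58 (SE 0.82) for *Abcc2*. For SeW minus DSW1200 it gave 5.50 (SE 1.02) for *Abcb1a* and 2.42 (SE 1.57) for *Abcg5*, but -1.16 (SE 1.16) for *Abcg8* and -1.93 for *Abcc2*. In that limma fit 0 genes were called for SeW against TW, with 803 at an unadjusted p under 0.05, and 0 for SeW against DSW1200, with 436. With 2 arrays a group, the ratio and the SeW group cannot be fully told apart.

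**Figure D4:**
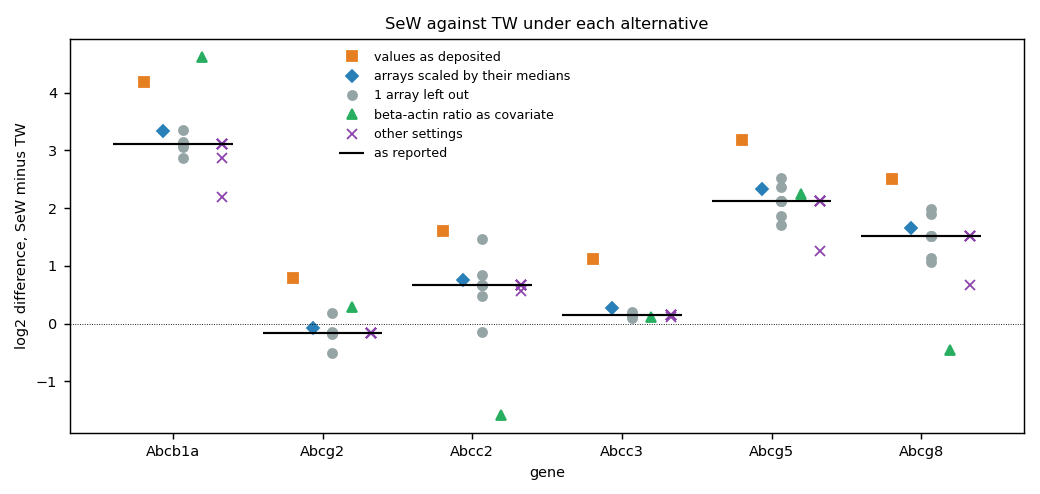
Log2 difference of SeW minus TW for each transporter under every alternative tried; black lines are the values reported and symbols the alternatives. *Abcb1a* stays between 2.19 and 4.61 and *Abcg5* between 1.26 and 3.18, while *Abcg8*, *Abcc2* and *Abcg2* have settings on either side of 0. The lowest values of *Abcb1a* and *Abcg5* came with 32 added to the signals.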

How the data were processed

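Rat Genome 230 2.0 arrays hold labelled RNA of loosened epithelial cells, 2 arrays a group. The authors deposited linear MAS5 signal intensities, 1 per probe set; the MAS5 version and scaling target are not given in the sources used here. The study's methods state quantile normalization, which the deposited intensities do not show, so it was applied here to all 31099 probe sets; values under 1 were set to 1 before log2. Of these probe sets, 20826 had 1 gene symbol in the platform annotation, 436 had several and 9837 had none; the last 2 kinds were left out, apart from the shared *Abcb1* probe set. For a gene with several, the brightest probe set was used. Tests covered 9258 genes whose geometric mean exceeded a signal of 6.69 (the median over probe sets), and the others are called dim. A single limma 3.58.1 model (R 4.3.3) over all 8 arrays, with an intensity trend and 4 residual degrees of freedom, gave 4 contrasts with Benjamini-Hochberg adjustment over all tested genes and a threshold of 0.05. The number of arrays limits the precision: the median standard error of a log2 difference was 0.264.

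The script was tested on simulated data. The transporters and gene lists were chosen with earlier results of these data known. Named genes are the 7 transporters, the genes of each list past the threshold with up to 4 others of smallest p, and for each transporter the 2 most correlated genes. The alternatives were values as deposited, scaling by medians, no filter, a higher filter at a signal of 24.7 (6440 genes), adding 32 to signals, averaging the probe sets of a gene, no intensity trend, only the 4 arrays compared, a 2-fold criterion, the replicate number as a block and each array left out; a covariate, the beta-actin ratio, was chosen after seeing the data.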

Additional observations from a re-analysis of the deposited data

Results flagged for a closer look

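The effects of SeW and DSW1200 against TW differed by limma for 6 genes of the lists and markers: *Sult1c2* by 1.56 log2 units, *Slc22a3* by 1.52, *Gstm2* by 0.924 and *Rxrb* by -1.25 (adjusted p 0.0343, 0.0440, 0.0440 and 0.0392), and the T cell markers *Gzma* by -1.28 and *Gzmb* by -1.18 (adjusted p 0.0204 and 0.0325). Since both effects use the same TW arrays, each of these is the contrast of SeW with DSW1200 and was read on 2 arrays against 2. In that contrast limma called 2.72% of all genes. The 6 were 2 of 17 conjugating enzymes, 1 of 9 uptake transporters, 1 of 13 receptors and factors, and 2 of 7 T cell markers. None of the other lists had a call there, and nothing is read from the count. *Abcb1a* and *Abcg5*, which limma also called in SeW against DSW1200, are left out of the 6 because the transporters were chosen with results known. On normalized signals, *Abcc3* was the single transporter whose SeW and DSW1200 arrays lay wholly on opposite sides of both TW arrays, 0.429 apart. Limma did not call it in SeW against DSW1200. As deposited, DSW1200 replicate 2 (87.0) lay above TW replicate 2 (66.2), so the pattern was lost. Arrays did not overlap for 51.2% of genes in SeW and 35.9% in DSW1200 against TW. The share of genes with both was not counted.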

How the results depend on the processing

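The direction of SeW minus TW was kept by *Abcb1a*, *Abcg5* and *Abcc3* in 18 of 18 alternatives, by *Abcg8* in 16 of 17, by *Abcc2* in 16 of 18 and by *Abcg2* in 15 of 18. The members' median of 1.09 became 2.06 as deposited, 0.61 with the offset, 0.20 with the beta-actin covariate and 0.61 to 1.67 with 1 array left out. For SeW minus DSW1200 the median of 1.59 became 2.49 as deposited, 0.98 with the offset and 0.51 with the covariate.

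Counts of genes called depended on the setting, and the cause was not tested. For SeW against TW 177 genes became 630 by the 2-fold criterion, 4380 as deposited, 42 by medians, 12 without the filter, 64 from averaged probe sets, 1 with no intensity trend, 26 with the 4 arrays compared, 0 with the covariate and 2 to 521 with 1 array left out. For SeW against DSW1200 252 became in the same order 574, 3738, 70, 19, 141 and 1, with 0 under the covariate and 3 to 436 with 1 array left out. The 1 gene for WR became 444 by 2-fold, 3 as deposited, 0 with no filter, 0 with no trend and 0 to 219 with 1 array left out, and the 0 for DSW1200 became 394 by 2-fold and 0 to 131. The count of 219 and that of 131 came without TW replicate 1. Of the other ABC genes, 11 (SeW against TW) and 9 (SeW against DSW1200) were called as deposited, 1 with the stricter filter and 1 with the offset in SeW against DSW1200, and 0 to 1 with 1 array left out.

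Replicate numbers did not pair the samples: deviations of same-numbered arrays correlated between -0.065 and 0.040. With the replicate block, 114 genes were called for SeW against TW and 116 for SeW against DSW1200.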
